A study of Mus musculus with 43 samples.

Results

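The 4 Hox clusters of the mouse were followed as 1 group of CpG sites in the colon of mice with colitis-associated dysplasia. The clusters hold the Hox genes, homeobox transcription factors that give cells their position along the body axis, arranged in order of their number, with genes numbered 1 to 4 at one end of a cluster and 13 at the other. Where Hox genes are silent they are textbook targets of Polycomb repression, and their CpG-rich DNA is usually free of methylation. Methylation gained at Polycomb targets is a known feature of colorectal tumors, which is why methylation was described here by position along each cluster, in epithelium by diet and in polyps.

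Members were CCCGGG sites lying in fixed windows of build mm9: HoxA on chromosome 6 from 52090000 to 52270000, HoxB on chromosome 11 from 96040000 to 96240000, HoxC on chromosome 15 from 102740000 to 102880000 and HoxD on chromosome 2 from 74480000 to 74620000. The files listed 195 sites in these windows, and a site was a member when it had at least 20 reads in at least 3 libraries of a group, which 160 sites reached (43 of 55 in HoxA, 40 of 46 in HoxB, 26 of 35 in HoxC and 51 of 59 in HoxD). Over the whole series 59174 of 173449 sites, or 34.1%, did so, against 82.1% in the Hox windows. The windows were also dense in sites, with 30.6 per 100 kb in HoxA, 23.0 in HoxB, 25.0 in HoxC and 42.1 in HoxD against 6.57 across all sites. A site is named here by its cluster and its mm9 position, as in HoxB:96182075, together with its distance from the low-numbered end of its window. The genome annotation at hand is of a later build, so no site was assigned to a gene, exon or promoter, and only the order of the 39 Hox genes was taken from it.

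All 43 libraries came from female Swiss Webster mice that were injected with azoxymethane (AOM, a colon carcinogen), given repeated cycles of dextran sulfate sodium (DSS, which causes colitis) and killed at 27 weeks of age. Cells were laser-microdissected from fixed colon, and after the first DSS cycle the chow held 0, 2 or 8 mg folic acid (FA) per kg. The first cohort held non-dysplastic epithelium (ND), with 5 libraries of the 0 mg diet (0ND), 7 of the 2 mg diet (2ND) and 6 of the 8 mg diet (8ND). In the second cohort there were 6 libraries each of 0ND, 8ND and polypoid dysplasia on 0 mg FA (0P), and 7 of polypoid dysplasia on 8 mg FA (8P), of which 2 were lesions of mouse 1856. Polyps and epithelium of the second cohort came from the same mice, and the epithelium of 8 mice was sequenced in each cohort, which makes the cohorts dependent. Per the study's methods some microdissected samples took in the lamina propria as well, and the labels do not say which. A polyp is a mixture of cells, and a change in methylation per cell and a change in the mixture cannot be told apart.

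Methylation was measured by DREAM, a restriction assay in which SmaI cuts only the unmethylated CCCGGG and XmaI then cuts the rest, so that the ends of the reads show the state of each copy. Values are the percent of methylated reads after adjustment with spiked DNA standards. Reads on sites ran from 1488920 to 16923453 per library, and 54 to 151 Hox sites had 20 reads in a library. The 8P libraries were the best covered, with 159 of the 160 members measured in at least 3 libraries, against 70 to 96 in the other 6 groups. More than 30% of the reads fell on the standards in 2 of 6 first-cohort 8ND libraries and, in the second cohort, in 3 of 6 of 0ND, 3 of 6 of 8ND, 1 of 7 of 8P and all 6 of 0P (32.6% to 77.4%). The part of this in the differences of 0P from other groups was not tested. In the second cohort 3 of 6 libraries of 0ND (mice 1805, 1808 and 1820) and 3 of 6 of 8ND (mice 1830, 1848 and 1858) had over 8% of their reads on the 100 most-read sites, and no other library did.

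The sequence cut by the enzymes of the assay can be seen in 4 Hox promoters, chosen to show a low-numbered and a high-numbered gene of HoxA and HoxD. They are the stretches around CCCGGG upstream of the gene start in RefSeq (build GRCm38.p6), written 5′ to 3′ on the strand of the gene with CCCGGG in capitals. Coordinates of this build cannot be set against the mm9 positions of the sites, so these stretches were not matched to sites read in the libraries.
Hoxa2, minus strand, chr6:52165005-52165081: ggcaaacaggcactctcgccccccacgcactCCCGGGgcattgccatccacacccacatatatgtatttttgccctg
Hoxa9, minus strand, chr6:52227527-52227612: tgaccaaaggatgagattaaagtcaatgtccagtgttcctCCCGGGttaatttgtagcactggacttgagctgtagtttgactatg
Hoxd4, plus strand, chr2:74721772-74721857: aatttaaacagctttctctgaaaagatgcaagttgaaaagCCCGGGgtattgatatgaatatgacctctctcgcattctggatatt
Hoxd10, plus strand, chr2:74691654-74691739: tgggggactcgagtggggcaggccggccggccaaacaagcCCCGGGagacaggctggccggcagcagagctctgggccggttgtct
In the 4 stretches CCCGGG began 219, 202, 166 and 197 bases before the start. Of the 24 Hox promoters in the table (22 genes, from 250 bases before to 50 after the start), 8 held CCCGGG, or 33.3%, against 13.5% of all 32851 promoters. CCCGGG reads the same on both strands, and its presence is a description of the sequence, with no methylation value attached to it here.

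Hox sites were mostly unmethylated in every group. In the first cohort 77 of the 81 measured Hox sites had a mean under 10% in 0ND, as did 82 of 87 in 2ND and 72 of 76 in 8ND. Of all sites measured in the same groups, 68.3%, 64.0% and 70.4% were under 10%, and 18.6% to 23.6% were over 50%, which only 1 Hox site exceeded in each group. Because the number of measured sites differed between groups, the 63 Hox sites measured in all 7 groups were also taken alone. Their mean ran from 2.54% in 8ND of the first cohort to 4.26% in 0P and their median from 0.435% in 0P to 1.29% in 8P. The 16600 sites of the whole series measured in all 7 groups had higher means, 15.7% to 17.9%. Their medians were lower than the Hox median in every group, from 0% in 8ND of the second cohort to 0.35% in 8P. At most 2 of the 63 Hox sites exceeded 50% in any group.

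**Figure D1:**
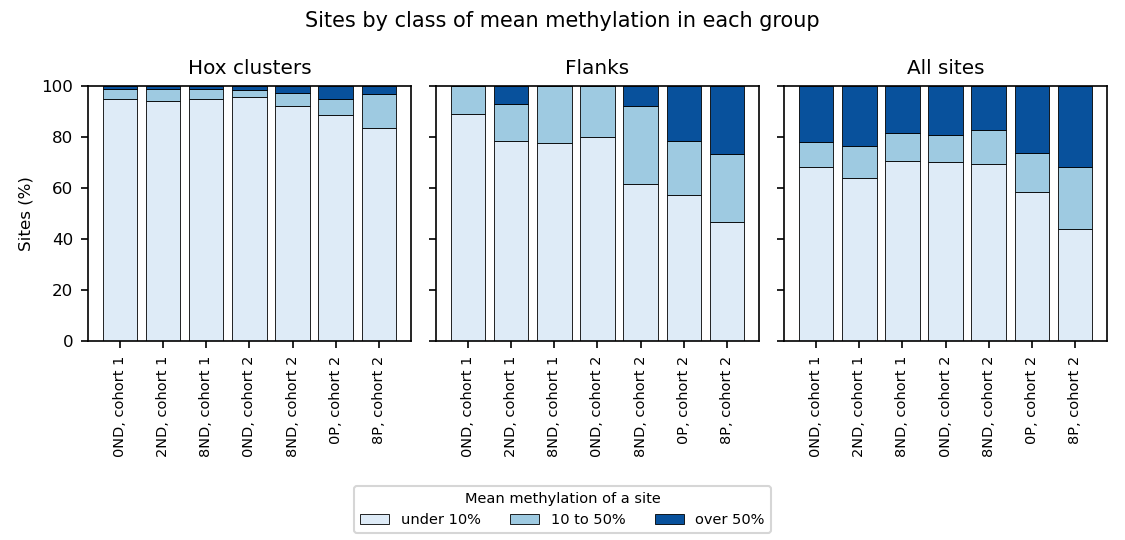
Stacked bars give the percent of measured sites (vertical axis) whose group mean methylation was under 10%, 10 to 50% or over 50%, for each of the 7 groups (horizontal axis), in the Hox clusters, in flanks as long as each window on both sides, and over all sites; the measured sites differ between groups. Bars under 10% reach 83.6% to 95.7% in the Hox clusters and 43.8% to 70.4% over all sites.

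The clusters differed in level. In HoxA all 22 measured sites were under 10% in 0ND of the first cohort, with a median of 0.25%. HoxD had more low-level methylation, with a median of 1.87% in 0ND and 2.18% in 2ND of the first cohort. HoxB combined a median of 0.278% in 0ND with the most methylated site of first-cohort epithelium that was measured in nearly all libraries, HoxB:96205548. HoxC was little covered in epithelium, with 4 to 6 sites measured per group, and became readable in 8P, where 23 of its 26 sites were under 10%. No cluster was compared with another by a test.

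Sites without methylation were read to the depth allowed by the library. At HoxB:96065311 (chromosome 11, 174.7 kb), the lowest of HoxB, all 18 first-cohort libraries read 0% with 21 to 149 reads each. The 8P libraries (n = 7, 89 to 250 reads) ran from 0% to 6.37% there, with a median of 0%. HoxA:52196576 (106.6 kb) read 0% in every library that reached 20 reads. HoxD:74543276 (76.7 kb) did the same. HoxC:102844715 (35.3 kb) read 0% in 5 of 5 libraries of 2ND, with 3.28% as the highest of first-cohort 0ND, 8.92% in 1 of 2 second-cohort 8ND libraries and 5.11% and 12.1% in 2 of 6 8P libraries. At a site with 20 reads, a count of 0 allows a share of up to 15%, as in the 0P library of mouse 1839 at HoxB:96199636, so a site listed at 0 with few reads can hold methylation that this depth cannot show. Intervals and limits of this kind cover counting error only.

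Pooled over the 4 clusters, methylated sites lay mainly toward the low-numbered end. Each window was split into 5 equal segments, numbered from the end with the lowest-numbered genes. In 8P, 20 of 62 sites in segments 1 and 2 had a mean of 10% or more (32.3%), against 6 of 97 in segments 3 to 5 (6.19%). The counts were 9 of 31 and 2 of 65 in 0P, 5 of 32 and 0 of 55 in 2ND, and 3 of 27 and 1 of 54 in 0ND of the first cohort. Those 3 sites of 0ND lay in HoxB and HoxC, and the 1 other lay in segment 5 of HoxD. In HoxA no site of segment 1 was measured in the first cohort. Of sites measured in all 7 groups, 2 to 4 of 20 in segments 1 and 2 and 0 or 1 of 43 in segments 3 to 5 reached 10%. The segments differed in depth, with a median of 39 reads per site in segments 1 and 2 and 61 in segments 3 to 5 of 8P, and 87.5 and 420 in 2ND. Whether depth had a part in the difference was not tested.

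**Figure D2:**
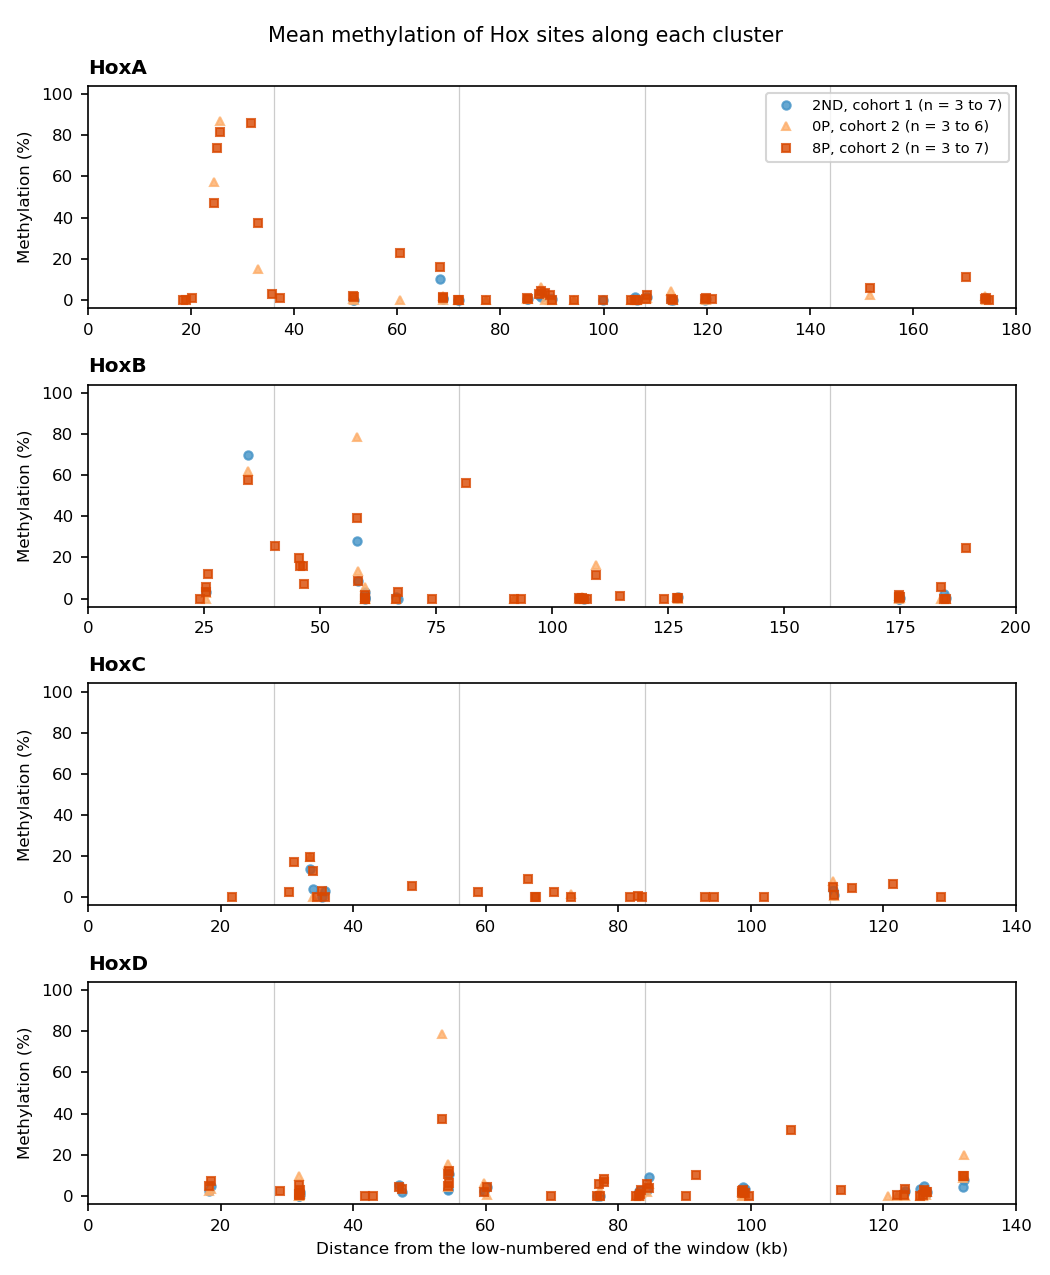
Each point is the mean methylation (vertical axis, percent) of a Hox site in 2ND epithelium, 0P or 8P, plotted by its distance in kb from the low-numbered end of its window (horizontal axis), with 1 panel per cluster and grey lines between the 5 segments. Points over 40% lie in the first 2 segments of HoxA, HoxB and HoxD with 1 exception, a HoxB site in the third segment at 56.1% in 8P.

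The most methylated sites of HoxA lay in segment 1, where 5 of 9 sites measured in 8P had means of 10% or more and the highest was 86.2%. HoxA:52121682 (31.7 kb) gave that value, with 69.7%, 75.3%, 100% and 100% in 4 8P libraries and 100% in the single second-cohort 8ND library and the single 0P library that reached 20 reads. HoxA:52115047 (25.0 kb) read 45.8%, 83.0% and 93.5% in 8P, 62.9% and 76.4% in 8ND of the second cohort and 69.4% in 1 first-cohort library of 0ND. These sites were thus methylated in non-dysplastic epithelium as well as in polyps, in the few libraries that read them. In segments 3 and 4 of HoxA, 21 sites measured in 8P were all at or under 4.40%.

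In HoxB, the highest site in epithelium was HoxB:96205548 (34.5 kb), which stayed between the extremes in every group. Its means were 63.4% ± 13.8 (SD, n = 5) in 0ND, 69.6% ± 10.9 (n = 7) in 2ND and 55.9% ± 14.2 (n = 5) in 8ND of the first cohort. In the second cohort they were 62.5% ± 17.4 (n = 6) in 0ND, 50.7% ± 15.0 (n = 6) in 8ND, 61.8% ± 18.2 (n = 5) in 0P and 57.7% ± 12.8 (n = 7) in 8P. All 41 libraries that read it lay between 32.0% and 86.3%, and neighbouring groups in this order overlapped. Its largest group difference, 8ND minus 2ND of the first cohort, was -13.6 points and was not called (SE 7.01, limma adjusted p = 0.913). HoxB:96158615 (81.4 kb), read in few libraries, gave 71.1% in the 1 library of 0ND, 53.7% and 90.3% in 2ND, and 53.9%, 56.2% and 58.2% in 8P.

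HoxC:102846467 (33.5 kb) was the most methylated HoxC site of first-cohort epithelium, at 18.1% ± 8.23 (n = 4) in 0ND, 13.6% ± 7.79 (n = 7) in 2ND and 16.7% ± 22.5 (n = 3) in 8ND. HoxC:102846100, 367 bases away and read by about as many reads (medians of 36 and 35 over all libraries), had 1.96% ± 1.97 (n = 4), 3.76% ± 3.11 (n = 7) and 5.34% ± 7.38 (n = 4). In 8P the values were 19.8% ± 11.4 (n = 6) and 12.6% ± 9.11 (n = 7).

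There were 58 pairs of adjacent Hox sites at most 500 bases apart. In 37 of them the median reads were within 1.5 times of each other. Over the libraries that read each site, 5 pairs differed by over 5 percentage points and 3 by over 10. The widest gap, 23.8 points, was in HoxB between HoxB:96181726 (58.3 kb) and HoxB:96182075 (57.9 kb), 349 bases apart. Most Hox sites were under 10%, where small gaps are common, and pairs that are not adjacent were not compared.

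Sites were also set out by the distance to the nearest other CCCGGG site. Over the 42 Hox sites more than 1000 bases from the next, 8P had a median of 1.22% and a mean of 10.0%. For the 83 Hox sites at 100 to 1000 bases these were 1.29% and 5.87%, and for the 34 under 100 bases 2.52% and 4.25%. The medians of all sites of the series in 8P were 42.3% over 1000 bases, 2.62% at 100 to 1000 bases and 0.164% under 100 bases. In the last class the Hox median was thus the higher one. The flanks of the windows had a higher median than the Hox sites in 8P, 14.5% over 60 sites against 1.42% over 159, and a lower one in epithelium of 0ND of the first cohort, 0.026% over 9 sites against 0.962% over 81. At the 7 flank sites measured in all 7 groups the 8P median was 0.32% and the mean 0.718%, against 1.29% and 3.68% at the 63 such Hox sites. None of these differences was tested.

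The effect of dietary FA on epithelium was then asked site by site. A site was tested when both groups had 20 reads in at least 3 libraries, by limma on the percentages over all such sites of the series. A site was called at an unadjusted p under 0.05 and a difference above 5 percentage points. In the first cohort 1 of 74 Hox sites was called in 8ND against 0ND, against 5.31% of all sites tested. Between 2ND and 0ND none of 80 was called (background 4.93%), and none had an unadjusted limma p under 0.05 (6.43% of all sites did). Between 8ND and 2ND none of 75 was called (background 2.23%), with 2 under an unadjusted limma p of 0.05 (3.35% of all sites). In the second cohort none of the 67 Hox sites was called between 8ND and 0ND (background 2.01%). There 1 was under an unadjusted limma p of 0.05, against 2.23% of all sites. The equal-variance comparison without moderation called 0 Hox sites in these last 3 comparisons, while a quasi-binomial model of the reads called 0, 0 and 3. No Hox site reached a Benjamini-Hochberg adjusted limma p under 0.05 in any comparison of diets or tissues. Between diets in epithelium, no site of the whole series was called with the adjusted p. Calls were rarer among all sites with a mean under 10% over both groups, where most Hox sites lay. In the first cohort they were 39 of 13790 (8ND against 0ND), 32 of 14638 (2ND against 0ND) and 42 of 14036 (8ND against 2ND). In the second cohort they were 26 of 12800. The Hox shares were not matched for level.

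Most Hox sites sat near 0 in both groups. Of the 74 Hox sites of the first cohort, 43 differed by less than 1 point in 8ND against 0ND. The same held for 54 of 80 in 2ND against 0ND and for 54 of 75 in 8ND against 2ND, and the median differences were -0.017, 0.0164 and -0.18 points. Over the 48 Hox sites read in every library of 8ND and 0ND, the library mean was 1.61% ± 0.742 (SD, n = 6) in 8ND and 1.74% ± 0.784 (n = 5) in 0ND, a difference of -0.133 points. The same mean over all sites read in every library was 13.8% in 8ND and 14.6% in 0ND. That is a difference of -0.77 points at a much higher level, so the points of the 2 sets are not on 1 scale. Neither the Hox mean difference between 2ND and 0ND (0.277 points, 56 sites) nor that between 8ND and 0ND of the second cohort (-0.559 points, 41 sites) exceeded the SD between libraries of both of its groups.

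The called site was HoxD:74487818 (chromosome 2, 132.2 kb), at the high-numbered end of HoxD, where the Hoxd13 and Evx2 genes lie. The 5 0ND libraries of the first cohort had 0.86%, 9.2%, 19.3%, 19.7% and 24.9%. In 2ND the lowest, median and highest were 0%, 7.27% and 22.5%, and in 8ND 0.48%, 2.8% and 7.93%. The means of 14.8% ± 9.64, 7.67% ± 7.35 and 3.84% ± 2.92 thus stood in the order of the dose, with overlap between all groups. The difference of 8ND from 0ND was -10.9 points (SE 4.06, limma adjusted p = 0.64), and the two-sided exact permutation test gave p = 0.0476. It was deeply read, with 86 to 1934 reads in these libraries. As raw percentages the difference was -6.32 points and was no longer called.

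HoxD:74488064, 246 bases away, moved with it in part. It had 8.58% ± 5.06 in 0ND, 4.21% ± 3.22 in 2ND and 4.36% ± 5.08 in 8ND, and was not called between 8ND and 0ND (-4.22 points, SE 3.09, limma adjusted p = 0.823). In the second cohort HoxD:74487818 had 9.45% ± 10.3 (n = 6) in 0ND and 3.17% ± 3.42 (n = 5) in 8ND, and HoxD:74488064 had 7.44% ± 8.29 (n = 6) and 0.602% ± 0.67 (n = 6). Neither difference was called (exact permutation p = 0.255 and 0.0606). Of the mice behind these libraries 8 were also in the first cohort. In the polyps, HoxD:74487818 ran from 0% to 40.1% in 0P (median 19.2%) and from 0% to 41.6% in 8P (median 4.79%). The 41.6% was 1 of the polyps of mouse 1856, whose value at HoxD:74488064 was 42.3%, while the other lesion of this mouse had 2.12% and 4.53%. Without it the 8P libraries ran from 0% to 6.76% at HoxD:74487818.

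**Figure D3:**
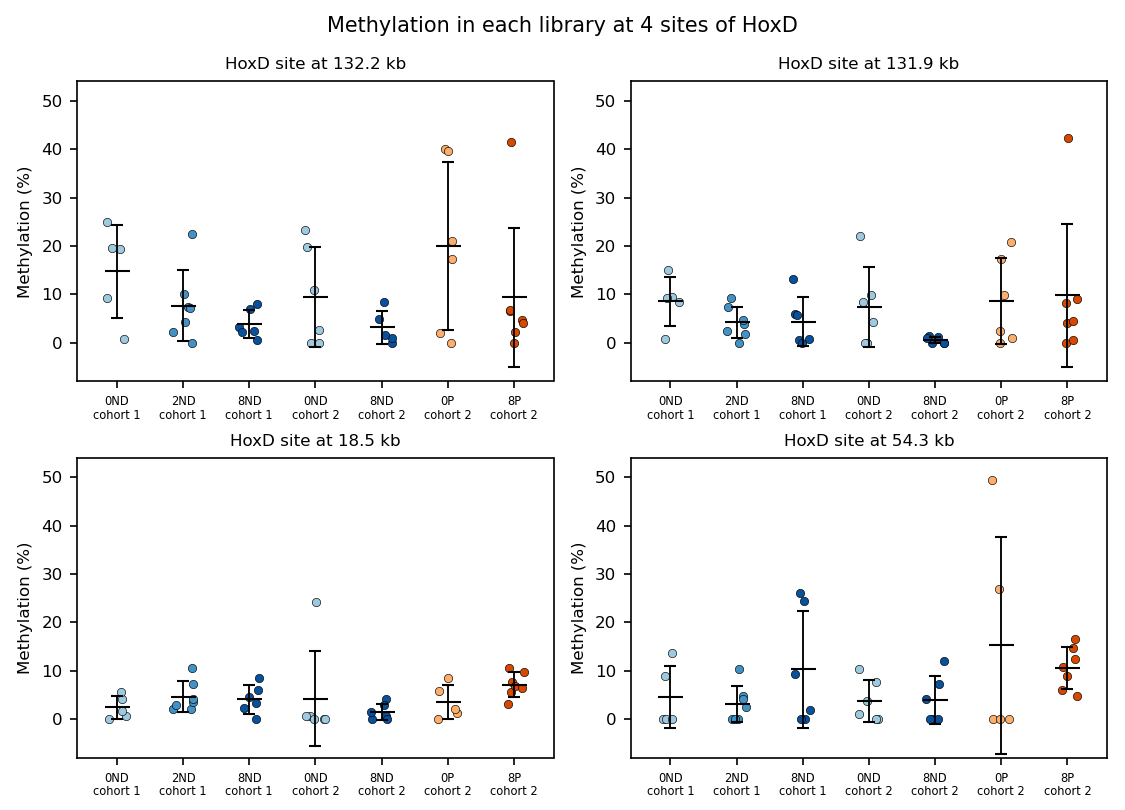
Methylation (vertical axis, percent) at 4 HoxD sites named by their distance from the low-numbered end, with 1 point per library that had at least 20 reads, and the mean with SD for groups of at least 3, across the 7 groups (horizontal axis). At 132.2 kb the means of the first cohort were 14.8% in 0ND, 7.67% in 2ND and 3.84% in 8ND, and the points of the 3 groups overlap.

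Other HoxD sites had methylation in epithelium. HoxD:74535318 (84.7 kb) had 8.18% ± 7.10 in 0ND, 9.05% ± 4.24 in 2ND and 6.76% ± 5.88 in 8ND of the first cohort. HoxD:74565611 (54.4 kb) had means of 7.19% ± 11.4 (n = 5), 2.99% ± 5.17 (n = 7) and 0.738% ± 1.65 (n = 5) there, also in the order of the dose. The median was 0% in each of these groups. The site was not called in 8ND against 0ND (-6.45 points, SE 5.04, limma adjusted p = 0.823). In the second cohort the order was not seen, with 2.80% ± 4.66 in 0ND and 3.19% ± 5.30 in 8ND. HoxD:74565699, 88 bases away, had first-cohort means of 4.51% in 0ND, 3.13% in 2ND and 10.3% in 8ND. HoxD:74560182 (59.8 kb) had the second largest Hox difference between 8ND and 0ND of the second cohort, 10.5 points, through 1 of the 4 8ND libraries that read it. That library, of mouse 1856, had 44.9% and the other 3 had 0%; without it the difference was -0.702 points.

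Polypoid dysplasia was compared with the non-dysplastic epithelium of the same mice. On 8 mg FA, 4 of 78 Hox sites were called between 8P and 8ND, 3 higher and 1 lower in 8P, against 5.88% of all sites tested. On 0 mg FA, 2 of 68 were called between 0P and 0ND, both higher in 0P, against 5.62% of all sites. Over all sites, calls were mostly lower in polyps, with 730 lower and 423 higher on 8 mg FA and 898 lower and 144 higher on 0 mg FA. The Hox share was close to this background in the first comparison and below it in the second. Most Hox sites were under 10%, where calls were rarer. Of all sites with a mean under 10% over both groups, 98 of 13516 were called on 8 mg FA and 47 of 13221 on 0 mg FA. The Hox share was not matched for level. By limma, 6 and 4 Hox sites had an unadjusted p under 0.05, against 7.57% and 5.91% of all sites. With the Benjamini-Hochberg adjusted p, 0 Hox sites were called in either, and 13 of 19606 and 52 of 18548 over all sites. The median difference at Hox sites was 0.417 points on 8 mg FA, with 50 of 78 sites higher and 18 lower in 8P, and 0.000833 points on 0 mg FA, with 34 of 68 higher and 24 lower in 0P.

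**Figure D4:**
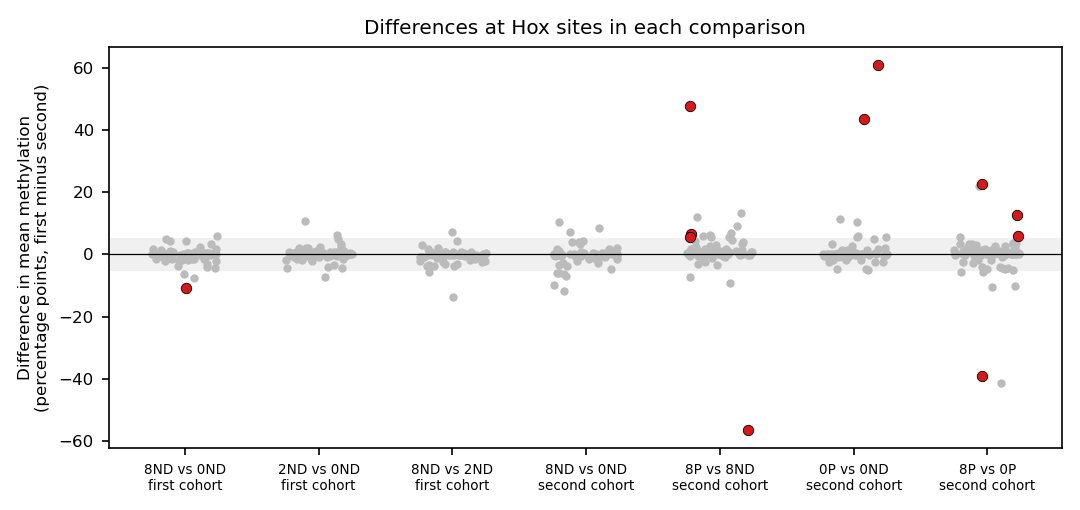
Each point is a Hox site, placed by its difference in mean methylation (vertical axis, percentage points, first-named group minus second) in each of the 7 comparisons (horizontal axis); red points were called and the grey band marks differences up to 5 points. Called sites number 1, 0, 0, 0, 4, 2 and 4, and the largest difference is 60.8 points.

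The largest Hox difference was at HoxB:96182075 (chromosome 11, 57.9 kb), which was highly methylated in the polyps of the 0 mg FA mice. Its 4 0P values were 54.1%, 77.7%, 84.3% and 97.3%, and its 5 0ND values of the second cohort were 4.42%, 8.91%, 9.56%, 28.4% and 36.3%. The groups did not overlap, as for 2 of 68 Hox sites and 1.55% of all sites in this comparison. The means were 78.4% ± 18.1 (SD, n = 4) and 17.5% ± 14.0 (n = 5), a difference of 60.8 points (SE 10.3, limma adjusted p = 0.0783, exact permutation p = 0.0159). In the 4 mice read in both tissues the polyp was higher by 41.4 to 79.9 points, and the sign-flip test gave its smallest possible p, 0.125. With the mouse as a replicate block the difference was 58.7 points and was still called.

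On 8 mg FA the same site was not called between polyps and epithelium. The 8P values of HoxB:96182075 ran from 19.5% to 91.7% with a median of 35.1%, and the 5 8ND values were 7.9%, 11.6%, 12.5%, 37.4% and 60.8%. The means of 39.3% ± 24.2 (n = 7) and 26.0% ± 22.7 (n = 5) were within each other's spread. The 91.7% was the polyp of mouse 1830, on 21 reads (95% Wilson interval of the raw share 71.1% to 97.3%), and the 60.8% was the epithelium of the same mouse, which was also the highest of first-cohort 8ND at 44.7%. Between 8P and 0P the difference was -39.0 points and was called (SE 13.5, limma adjusted p = 0.859, exact permutation p = 0.0242), and it was no longer called without the 0P library of mouse 1839 (-32.7 points). The change from epithelium to polyp averaged 58.7 points in 4 mice on 0 mg FA and 15.6 points in 5 on 8 mg FA. Since the site was picked for its large difference in polyps, this is a description.

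In first-cohort epithelium HoxB:96182075 had 17.2% ± 19.3 (n = 5) in 0ND, 27.9% ± 12.6 (n = 7) in 2ND and 22.1% ± 15.6 (n = 5) in 8ND. Pooled over reads, the raw methylated share was 15.6% of 2712 reads in first-cohort epithelium, 14.2% of 1139 in second-cohort epithelium, 28.1% of 616 in 8P and 68.1% of 339 in 0P. Second-cohort epithelium had 14.0% in the libraries with over 8% of reads on the 100 most-read sites and 15.9% in the others. The 2 0P libraries with under 20 reads at the site gave 18 methylated of 28 reads. HoxB:96181726, 349 bases away, had 13.3% ± 20.4 (n = 4) in 0P, with 0%, 0%, 10.1% and 43.1%, against 7.31% ± 5.46 (n = 5) in 0ND.

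HoxA:52115690 (chromosome 6, 25.7 kb) was called in both diets. On 0 mg FA the 0P values were 77.1%, 79.4%, 85.5%, 93.7% and 100% and the 0ND values 33.9%, 39.0% and 57.8%, with means of 87.1% ± 9.65 (n = 5) and 43.5% ± 12.6 (n = 3). On 8 mg FA the 8P values ran from 62.9% to 100% with a median of 79.8%, and the 8ND values were 12.1%, 42.3% and 46.7%, with means of 81.5% ± 12.7 (n = 7) and 33.7% ± 18.9 (n = 3). Polyps and epithelium did not overlap in either diet, as for 2 of 78 Hox sites and 1.40% of all sites on 8 mg FA. The differences were 43.6 points (SE 7.49, limma adjusted p = 0.11, exact permutation p = 0.0357) and 47.8 points (SE 9.65, limma adjusted p = 0.16, exact permutation p = 0.0167). With the mouse as a replicate block, 2 mice gave pairs on 0 mg FA and the site was no longer called (32.9 points), while on 8 mg FA it was still called (49.1 points in 3 mice).

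The epithelium values of HoxA:52115690 came only from the 6 libraries with over 8% of their reads on the 100 most-read sites. These held 248 methylated of 704 reads (35.2%, Wilson interval 31.8% to 38.8%), while the other 6 second-cohort epithelium libraries, with 54 reads in all, held 26 (48.1%, 35.4% to 61.1%). In the first cohort, where 1 of 18 epithelium libraries reached 20 reads, 90 of 136 reads were methylated (66.2%, 57.9% to 73.6%). In polyps the raw shares were 86.3% of 248 reads in 0P and 77.4% of 509 in 8P. The pooled share of first-cohort epithelium was nearer to those of the polyps than that of second-cohort epithelium was. The part of these libraries in the called differences was not tested. HoxA:52114462 (24.5 kb) showed the widest spread of all Hox sites, with 0%, 75.8% and 96.4% in 0P.

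**Figure D5:**
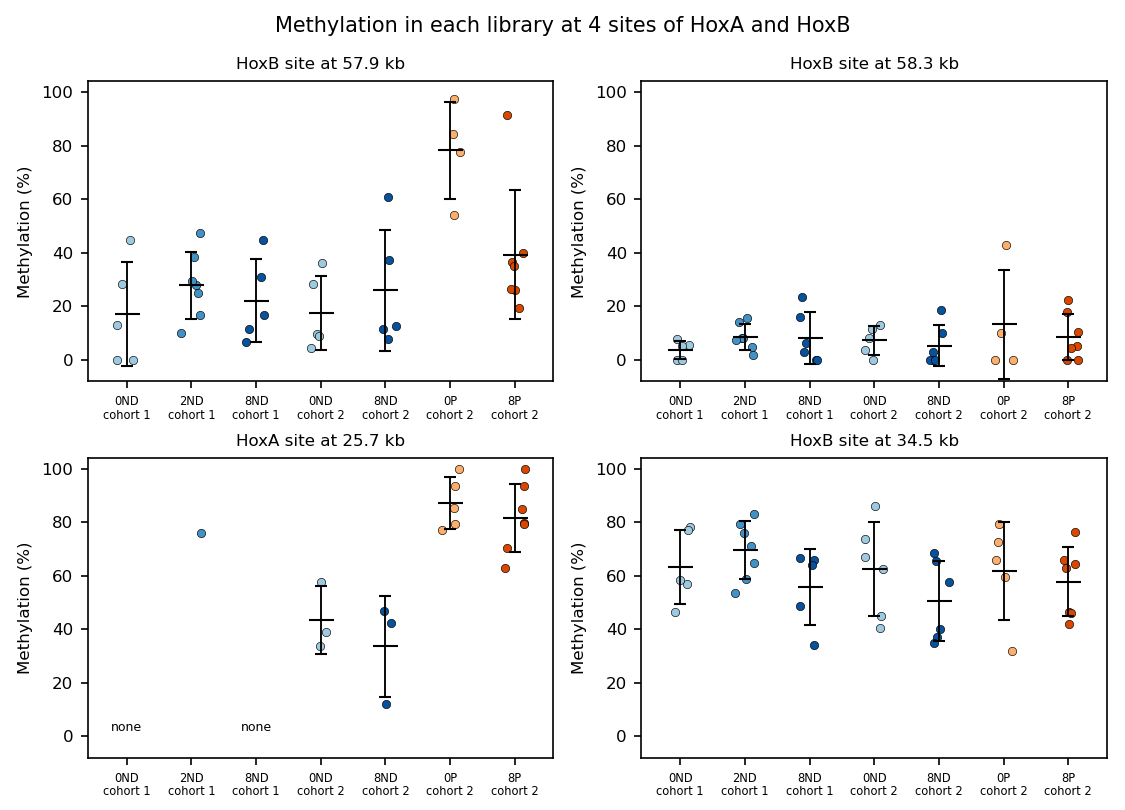
Methylation (vertical axis, percent) at 4 sites of HoxA and HoxB named by their distance from the low-numbered end, with 1 point per library that had at least 20 reads, and the mean with SD for groups of at least 3, across the 7 groups (horizontal axis; none marks groups with no such library). At HoxB 57.9 kb the 4 0P libraries sit between 54.1% and 97.3%, while at HoxB 58.3 kb 3 of the 4 sit at or under 10.1%.

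The other 3 sites called between 8P and 8ND were smaller in change or in depth. HoxD:74601512 (18.5 kb) went from a range of 0% to 4.14% in 8ND to 3.15% to 10.7% in 8P (median 6.77%). The means were 1.55% ± 1.68 (n = 6) and 7.16% ± 2.54 (n = 7), a difference of 5.60 points (SE 1.58, limma adjusted p = 0.283, exact permutation p = 0.00233), and all 6 mice were higher in the polyp. Its first-cohort means of 2.46% ± 2.36 in 0ND, 4.67% ± 3.15 in 2ND and 4.09% ± 2.95 in 8ND overlapped those of 8P in range. HoxD:74601684, 172 bases away in the same segment, had 4.27% ± 8.76 in 8ND and 4.95% ± 3.30 in 8P. On 0 mg FA, HoxD:74601512 had 4.24% ± 9.78 in 0ND, where mouse 1808 had 24.2%, and 3.57% ± 3.50 in 0P. As raw percentages its difference on 8 mg FA was 4.62 points, under the limit of 5.

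HoxD:74565699 (54.3 kb) was called with 3.92% ± 4.97 (n = 6) in 8ND and 10.6% ± 4.38 (n = 7) in 8P. The 8ND libraries ran from 0% to 12.1% and the 8P libraries from 4.79% to 16.6%, so the groups overlapped, with all 6 mice higher in the polyp (6.66 points, SE 2.76, limma adjusted p = 0.571, exact permutation p = 0.0291). The 8ND libraries of the first cohort had 10.3% ± 12.1 (n = 6), about the level of 8P. Its neighbour HoxD:74565611, 88 bases away, had 3.19% ± 5.30 in 8ND and 4.85% ± 3.20 in 8P.

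HoxB:96199636 (40.4 kb) was lower in 8P, at 18.7%, 22.9%, 29.4% and 31.6%, than in 8ND, at 46.4%, 100% and 100%. The difference was -56.5 points (SE 14.5, limma adjusted p = 0.36, exact permutation p = 0.0571, the smallest possible with 4 and 3 libraries). It rested on 23 to 43 reads per library. The 3 8ND libraries under 20 reads held 0 methylated of 16 reads, the 5 0ND libraries under 20 reads held 0 of 46, and all 18 first-cohort libraries together held 7 of 111 (6.31%, Wilson interval 3.09% to 12.4%). Methylated reads in second-cohort epithelium were thus found at this site in the libraries above the minimum of 20 reads and in none of the 8 below it.

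Between polyps of both diets, 4 of 95 Hox sites were called, 3 higher and 1 lower in 8P, against 3.86% of all sites. Of all sites with a mean under 10% over both groups, 130 of 17169 were called. By limma, 9 Hox sites had an unadjusted p under 0.05, against 4.91% of all sites. With the Benjamini-Hochberg adjusted p, 0 Hox sites were called, and 3 of 29118 over all sites. Apart from HoxB:96182075, the 3 called sites were at 0% in all 0P libraries that read them. HoxD:74542880 (77.1 kb) had 0% in 6 0P libraries with 22 to 118 reads and 0% to 12.9% in 8P (median 6.13%, mean 5.99% ± 4.74, n = 7), with the 2 groups touching at 0% (exact permutation p = 0.00816, limma adjusted p = 0.801). HoxA:52150482 (60.5 kb) had 0% in 3 0P libraries with 23 to 37 reads, which allow shares of up to 8.11% to 13.0%, and 7.63% to 38.6% in 6 8P libraries (mean 22.7% ± 10.4, exact permutation p = 0.0238). The other 8P library, a lesion of mouse 1856, held 0 of 17 reads there. No second-cohort epithelium library read it to 20 reads. HoxC:102846100 (33.9 kb) had 0% in 3 0P libraries and 12.6% ± 9.11 (n = 7) in 8P, from 0% to 24.8% (exact permutation p = 0.0667, limma adjusted p = 0.859).

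HoxD:74566587 (53.4 kb) had the largest difference between 8P and 0P that was not called, -41.5 points (limma adjusted p = 0.859), with 36.9%, 100% and 100% in 0P and 0%, 25.4%, 39.1% and 85.4% in 8P on 20 to 27 reads. HoxD:74513893 (106.1 kb) spread from 0% to 79.8% over 3 8P libraries on 21 to 49 reads. Both sites were read near the minimum of 20 in most libraries.

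Means over the Hox sites read in every library were taken per library. Across 44 sites they were 3.21% ± 0.501 (n = 7, from 2.51% to 4.02%) in 8P and 2.23% ± 0.827 (n = 6, from 1.22% to 3.6%) in 8ND. Across 30 sites they were 1.33% ± 0.983 (n = 6, from 0.183% to 2.68%) in 0P and 1.07% ± 0.619 (n = 6, from 0.330% to 1.93%) in 0ND. Across 40 sites they were 1.66% ± 0.638 (from 1.22% to 3.02%) in 8P and 1.79% ± 0.898 (from 0.272% to 2.85%) in 0P. The libraries of both groups overlapped in each of these comparisons. The corresponding differences of 0.982, 0.262 and -0.13 points stood beside -0.457, -1.68 and 0.31 points over all sites read in every library of the same groups. The all-site means were much higher, from 13.6% to 15.6%, so the sizes in points cannot be compared directly. HoxB:96182075 and HoxA:52115690 entered none of these means, on either diet, since not every 0ND, 8ND and 0P library read them to 20 reads.

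Spread between libraries was set out by the level of the site. Among sites with group means under 10%, the median SD over 0ND libraries of the first cohort was 1.12 points for 77 Hox sites and 0 for all 14823 such sites. It was 0.378 against 0 in 8ND of the second cohort and 1.06 against 0.031 in 8P. Among sites with means of 10% to 50% in 8P it was 11.4 points for 21 Hox sites and 18.2 for all 13831. Sites were not matched for their mean within these classes, and no test was made. The largest SDs within a group were 50.8 points at HoxA:52114462 in 0P, 42.1 at HoxD:74513893 in 8P and 36.5 at HoxD:74566587 in 0P, each over 3 libraries.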

How the data were processed

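DREAM methylation was available for 43 microdissected colon libraries, each its own file, grouped by the diet, tissue, cohort and mouse number in the labels. The authors mapped the reads to mm9 (the labels name Bowtie2 and SAMtools, versions not given in the sources used here; the methods text names the human genome). For 173449 CCCGGG sites and 18 spiked standards the deposited values are read counts by methylation state, a raw methylated percent and a percent adjusted with the standards. The raw percent was checked against the read counts (largest deviation 0.005) and the adjusted percent was found to follow from it by 1 odds factor per library, from 0.992 to 4.04 (largest deviation 0.024). The factors were higher in the first cohort (1.24 to 4.04) than in the second (0.992 to 1.97).

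From these files, values with under 20 reads were left out. Groups were compared with limma 3.58.1 in R 4.3.3, moderated with a variance trend over all sites with 20 reads in at least 3 libraries of each group, on the adjusted percent. The study's criteria were kept, an unadjusted p under 0.05 and a difference above 5 percentage points, and Benjamini-Hochberg values over all sites are given beside them. Single sites were also tested by two-sided exact permutation over libraries and, for polyps against epithelium, by exact sign flips within mice (Python 3.11.15, numpy 2.4.6, scipy 1.17.1, pandas 2.3.3, matplotlib 3.10.9). The members, lists and rules were chosen with earlier results of these data known, and the pooling of segments and of reads and the sites read in all groups were chosen after seeing the data. P-values measure the spread between these libraries. Limma without a mouse block and the exact permutation took no account of the pairing by mouse or of both lesions of mouse 1856. Sites named are those called, the 2 with the largest difference per comparison, the 3 highest and the lowest per cluster in first-cohort epithelium, the 3 with the largest SD, and neighbours of called sites. The fit was tested on simulated data before use. Polyps and epithelium were paired by mouse number, since they came from the same animals. The correlation of their deviations from the group means over all sites ran from -0.0313 to 0.339.

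Alternatives were coverage minimums of 10 and 50 reads, sites read in every library, raw percent, limma without a trend, an equal-variance comparison without moderation, a quasi-binomial model of the counts with the factor as offset, Benjamini-Hochberg adjustment, centred libraries, a mouse block, averaging of both lesions of mouse 1856, and leaving out each library or library type. No genome or annotation of mm9 was used here. The files of both 1856 lesions carry names that cross the sample titles, and the recorded sample of each file was followed.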

Additional observations from a re-analysis of the deposited data

Results flagged for a closer look

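In groups of 4 to 10 libraries, the highest or lowest library was compared with the rest by Dixon's criterion for the mean over all Hox sites and each cluster and for each called site, in 53 sets, and 5 sets had a library apart. Chance gives about 1 in 20, or 2.65 of 53. The mean over HoxA in the 8ND library of mouse 1858, first cohort, was 0.917% against 0.0992% to 0.378% in the other 5. The mean over the 2 fully read HoxC sites in the 0ND library of mouse 1820 was 6.4% against 0% to 1.72%. The mean over HoxB in the second-cohort 8ND library of mouse 1856 was 1.54% against 0% to 0.39%. The mean over HoxD in 1 of the 8P lesions of mouse 1856 was 6.46% against 2.11% to 3.34%, and the pair of sites at the high-numbered end of HoxD was at 41.6% and 42.3% there. HoxB:96182075 in the 8P library of mouse 1830 was 91.66% against 19.45% to 39.96%.

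At HoxB:96182075 the mean change from epithelium to polyp on 8 mg FA stood at -43.1 points relative to that on 0 mg FA. The exact permutation p was 0.0159, the smallest possible with these mice (0.0794 adjusted over the 5 sites tested). The site was picked for its difference in polyps, so this p is descriptive. It does not cover the 68 to 95 Hox sites tested between groups. The polyp was higher in 4 of 4 mice on 0 mg FA and in 4 of 5 on 8 mg FA. Depth differed at this site, with 35 to 164 reads in 0P and 21 to 198 in 8P, and its part in the difference was not tested.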

How the results depend on the processing

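For 8ND against 0ND in the first cohort, 0 calls were made with raw percentages or the adjusted p, and leaving out the 8ND libraries with over 30% of reads on standards gave 2; centring libraries moved the Hox mean difference from -0.133 to 0.637 points. Between 8ND and 2ND, raw percentages, centring and leaving out those 8ND libraries each gave 1 call. Between 8ND and 0ND of the second cohort the quasi-binomial model gave 3. Between 8P and 8ND, sites read in every library gave 2 calls, raw percentages 2, the adjusted p 0, and leaving out epithelium libraries with over 8% of reads on the 100 most-read sites 1 (HoxD:74565699). Between 0P and 0ND, a minimum of 50 reads, sites read in every library, the adjusted p and leaving out those libraries each gave 0, the mouse block 1, and the Hox mean difference was 1.81 points at a minimum of 10 reads and 1.94 after centring. Between 8P and 0P, a minimum of 10 reads gave 7 calls, 50 reads 0, sites read in every library 1 and the adjusted p 0. A higher minimum and reading in every library leave fewer sites to test. Once the epithelium libraries named for their most-read sites were left out, 0 0ND libraries had 20 reads at HoxA:52115690 and 2 did at HoxB:96182075, and 0 and 1 8ND libraries did at HoxA:52115690 and HoxB:96199636, so these were not tested in the respective comparison. For the rest the cause was not tested.

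In the first cohort, leaving out 1 library at a time gave 0 to 1 calls for 8ND against 0ND, 0 to 2 for 2ND against 0ND, and 0 to 1 for 8ND against 2ND. In the second cohort it gave 0 to 1 between 8ND and 0ND, 1 to 4 between 8P and 8ND, 1 to 2 between 0P and 0ND, and 2 to 4 between 8P and 0P. The Hox mean difference turned sign for 8ND against 0ND (-0.332 to 0.195 points) and 2ND against 0ND (-0.0305 to 0.760) of the first cohort, for 0P against 0ND (-0.00887 to 0.606) and for 8P against 0P (-0.379 to 0.0808). It kept its sign for 8ND against 2ND (-0.389 to -0.166), 8ND against 0ND of the second cohort (-0.847 to -0.390) and 8P against 8ND (0.779 to 1.25). The site HoxD:74487818 was lost without any of the 3 highest 0ND libraries. Counts between 8P and 8ND fell to 1 without the 8ND library of mouse 1830 and to 2 without that of mouse 1856 or 1858, and between 0P and 0ND to 1 without the 0ND library of mouse 1805, 1808 or 1820, where HoxA:52115690 or HoxB:96199636 then had fewer than 3 epithelium libraries. HoxD:74565699 was lost without any of 8 libraries. Between 8P and 0P 2 calls were left without the 8P library of mouse 1848 or the 0P library of mouse 1805 or 1820. With the mouse as a replicate block 5 sites were called between 8P and 8ND, the 4 above and HoxC:102809713 (5.34 points, chosen after its value was seen), and the pairing ended the call of HoxA:52115690 on 0 mg FA and no other. Of 391 values of named sites under alternatives, 345 kept direction and call, 37 lost the call, 8 gained one, 1 moved and 0 reversed. Some of these sites were never called and count as kept when still not called. Settings in which a site was not tested are left out. Of 286 values of the Hox call counts and mean differences under alternatives, 244 stayed close to the main value and 42 moved. Depth limits most of what can be said of HoxC and of the low-numbered end of HoxA in epithelium.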
